A study of Homo sapiens with 3 samples.

Results

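A set of 10 genes of the epithelial acute phase and of mucosal defence was followed in DLD1 cells, an established human colorectal cancer cell line that the labels give as tumour stage III. They were LCN2, SAA1, SAA2, C3, CFB, PIGR, IL32, OLR1, SDC4 and ICAM1, which are 10 of the 60504 genes in the deposited table, matched to Ensembl identifiers through their symbols. RNA-Seq had been run on 1 library of wild type DLD1 control cells and on 2 libraries of BEX2-/- DLD1 cells, in which BEX2 was knocked out with CRISPR/Cas9. The knockout libraries, KO1 and KO2, are called clone 1 and clone 2 here, and each was taken as 1 clone. Their titles do not say whether they are separate clones or replicates of 1 line. No treatment or time course is given for any library. The genes were selected on their FPKM values in these libraries, by name and with the differences between the clones known, so their values describe these libraries and were given no test. The control library serves both clones.

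In an epithelium under bacterial or cytokine stimulation, cells secrete proteins that withhold nutrients from microbes, opsonise them or carry antibodies to the lumen. Many of the genes respond to interleukin-1, interleukin-17 and tumour necrosis factor through NF-kappaB and C/EBP factors. Lipocalin 2 binds bacterial siderophores, serum amyloid A proteins are classical acute-phase reactants, and C3 and factor B act in the alternative complement pathway. PIGR carries polymeric immunoglobulin across epithelial cells. IL32 is a cytokine, ICAM1 an adhesion molecule that binds leukocyte integrins, SDC4 a heparan sulfate proteoglycan of the cell surface, and OLR1 a scavenger receptor for oxidised lipoprotein.

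LCN2, SAA1, SAA2, C3, IL32, OLR1 and SDC4 were between 5.10-fold and 207-fold higher in clone 2 than in DLD1 control cells, and LCN2, IL32, OLR1, SDC4 and ICAM1 were lower in clone 1 than in the control. CFB and PIGR stood in the reverse order, on at most 9 reads each. Whether a lower level reflects fewer cells that express a gene or less RNA per cell cannot be told apart in bulk RNA. Levels are in FPKM, fragments scaled to gene length and library depth. Reads per gene were recovered from the steps of low FPKM values, which gave depths of 47458850 (control), 35593989 (clone 1) and 47722374 (clone 2) reads. Where a gene had no read, its fold was taken against 3 reads, which leaves out the counting error of the other library. The lower limit of the exact interval is given beside such a fold. Intervals below are exact 95% Clopper-Pearson intervals of the ratio of reads. They cover counting error only, since the control, clone 1 and clone 2 are 1 library each.

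**Figure D1:**
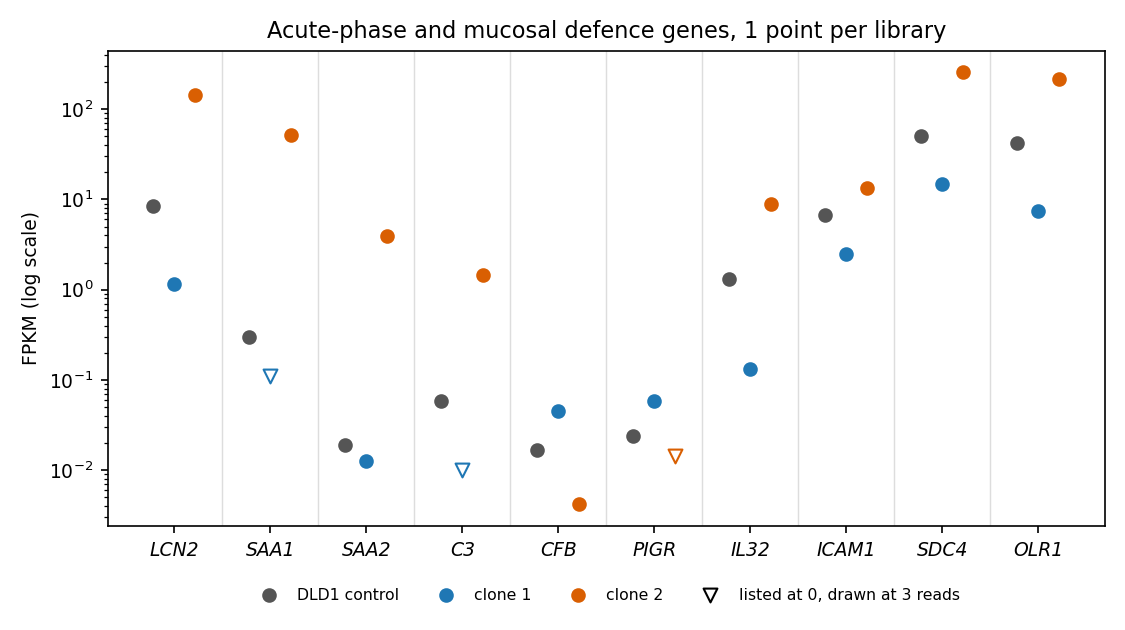
FPKM on a log axis for the 10 genes in DLD1 control cells (grey), clone 1 (blue) and clone 2 (orange), 1 point per library, with open triangles at the level of 3 reads where a gene was listed at 0. Clone 2 stands highest for 8 genes and lowest for CFB and PIGR, and the control lies between the clones for all 10.

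All libraries carried epithelial markers. EPCAM stood between 220 and 282 FPKM and KRT8 between 510 and 611 FPKM. CDH1, KRT18, KRT19, CDX2 and CDH17 lay between 24.0 and 494 FPKM in every library. The other epithelial markers listed, VIL1, LGALS4 and CDX1, were at 3.61, 2.28 and 0.455 FPKM in the control. In clone 2 they were at 0.221, 0.119 and 0.0834 FPKM. PTPRC, CD3D, MS4A1, LYZ, FCGR3A and ELANE were listed at 0 in every library, as 6 of 12 leukocyte markers, and the summed level of all 12 was between 0.843 and 1.21 FPKM. Most of that sum was CD14, at 0.793 FPKM in the control, 0.760 FPKM in clone 1 and 0.700 FPKM in clone 2. Hepatocytes are the main source of circulating acute-phase proteins, and 5 of 8 hepatocyte markers (APOA1, APOA2, APOB, TTR and CYP3A4) were listed at 0 throughout, with a sum between 0.0670 and 0.165 FPKM. The sum was between 1.48 and 1.65 FPKM for 6 endothelial markers, of which CDH5, KDR and TEK were at 0. Nearly all of it was CLDN5, at 1.41 FPKM in the control, 1.49 FPKM in clone 1 and 1.57 FPKM in clone 2. For 7 fibroblast markers, of which COL3A1, LUM and PDGFRA were at 0, the sum was between 0.129 and 0.634 FPKM. The highest of these sums, in clone 1, was mostly PDGFRB at 0.602 FPKM. BEX2 had no reads in any of the 3 libraries (3 reads would be 0.0538 FPKM in DLD1 control cells), so its mRNA did not check the genotype labels.

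The sequences upstream of the members are shown first. LCN2, IL32, ICAM1 and SDC4 took the same order in the 3 libraries, while CFB and PIGR, with few reads, did not. RefSeq promoters on GRCh38.p14 were matched for 6 of the 10 members, and the 250 bases before the annotated start were read. Capitals mark matches on either strand to the classical kappaB consensus, the binding motif of NF-kappaB, or to the shorter form GGANNNTCC, which reads the same on both strands and was chosen after these promoters had been looked at. Matches of the forms overlap in LCN2 and IL32. The windows are chr9:128149203-128149452 (plus strand) for LCN2, chr16:3065153-3065402 (plus strand) for IL32, chr19:10270870-10271119 (plus strand) for ICAM1, chr20:45348425-45348674 (minus strand) for SDC4, chr6:31945845-31946094 (plus strand) for CFB and chr1:206946467-206946716 (minus strand) for PIGR.
LCN2: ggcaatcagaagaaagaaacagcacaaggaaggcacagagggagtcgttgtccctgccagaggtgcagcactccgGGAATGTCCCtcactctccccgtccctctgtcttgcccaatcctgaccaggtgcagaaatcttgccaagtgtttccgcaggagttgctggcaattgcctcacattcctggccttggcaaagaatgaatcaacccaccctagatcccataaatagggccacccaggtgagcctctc
IL32: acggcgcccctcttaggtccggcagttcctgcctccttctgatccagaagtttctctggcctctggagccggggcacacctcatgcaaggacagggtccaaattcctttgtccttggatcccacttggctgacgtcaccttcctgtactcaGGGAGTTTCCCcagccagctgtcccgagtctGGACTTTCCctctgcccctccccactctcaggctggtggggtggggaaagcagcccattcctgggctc
ICAM1: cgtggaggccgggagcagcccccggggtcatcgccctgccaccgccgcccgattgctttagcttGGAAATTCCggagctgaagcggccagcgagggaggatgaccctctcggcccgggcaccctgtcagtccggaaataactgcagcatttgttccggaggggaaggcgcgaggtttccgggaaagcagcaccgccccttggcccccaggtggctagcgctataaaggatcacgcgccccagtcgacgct
SDC4: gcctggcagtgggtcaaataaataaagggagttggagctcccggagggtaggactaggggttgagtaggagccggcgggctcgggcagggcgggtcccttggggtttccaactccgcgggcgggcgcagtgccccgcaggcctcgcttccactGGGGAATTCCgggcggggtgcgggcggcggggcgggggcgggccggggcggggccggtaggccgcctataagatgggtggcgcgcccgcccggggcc
CFB: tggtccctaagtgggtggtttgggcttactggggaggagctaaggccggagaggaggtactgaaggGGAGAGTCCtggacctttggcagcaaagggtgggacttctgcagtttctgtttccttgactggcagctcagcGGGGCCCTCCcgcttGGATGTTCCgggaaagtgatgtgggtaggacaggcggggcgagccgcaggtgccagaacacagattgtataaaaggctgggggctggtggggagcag
PIGR: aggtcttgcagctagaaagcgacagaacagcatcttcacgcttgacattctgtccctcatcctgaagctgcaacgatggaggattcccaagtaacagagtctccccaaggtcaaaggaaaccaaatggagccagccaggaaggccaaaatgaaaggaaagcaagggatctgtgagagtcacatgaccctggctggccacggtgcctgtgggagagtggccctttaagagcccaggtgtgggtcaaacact

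The classical consensus was matched once in LCN2, SDC4 and CFB and, in overlapping positions, at -99 and -98 in IL32, counted from the start site. The shorter form was matched at -175 in LCN2, -98 and -68 in IL32, -186 in ICAM1, and -184 and -97 in CFB. PIGR held neither. Of 35116 RefSeq promoter windows of the same length, 9.96% held the classical consensus and 7.8% the shorter form. The C/EBP form TTNNGCAA was found on either strand in LCN2, at -143, and in 9.05% of all windows, and the TATA box TATAAA in ICAM1 and CFB, at -30 in each, and in 10.7% of all windows. IL32 has a second RefSeq start, whose window held none of these motifs. Matched letters describe the windows and do not show that a factor bound them. CFB, outside the order of LCN2, IL32, ICAM1 and SDC4, held both kappaB forms. Any part of these motifs in the order of the libraries was not tested.

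LCN2 (ENSG00000148346, chromosome 9, 128149071 to 128153455 on GRCh38) measured 8.45 FPKM in the control, 1.16 FPKM for clone 1 and 142 FPKM for clone 2, or 641, 66 and 10844 reads. It was 7.28-fold lower in clone 1 than in the control (interval 5.65 to 9.53) and 16.8-fold higher in clone 2 (15.5 to 18.2). Between the clones the ratio was 123 (96.2 to 159). Ratios were also ranked on the log2(FPKM + 1) scale, which understates low genes. The 11675 genes ranked averaged 1 FPKM or more, the average being taken of the control value and the clones' mean. LCN2 had the largest ratio of clone 2 to clone 1, 6.051, with the chemokine CCL20 all but equal at 6.050. First place depended on the pseudocount. With 0.1 FPKM instead, SAA1 had a ratio of 9.01 against 6.82 for LCN2. The clones differed more from each other in LCN2 than either did from the control.

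SAA1 and SAA2 encode the inducible serum amyloid A proteins. SAA1 (ENSG00000173432, chromosome 11, 18266174 to 18269977) measured 0.303 FPKM in the control, 0 FPKM for clone 1 and 51.4 FPKM for clone 2. These were 11, 0 and 1875 reads, if SAA1 is given a length of 765 bases, the nearest to its annotated 796 exon bases at which all 3 values become whole. SAA1 was 170-fold higher in clone 2 than in the control (94.5 to 340.2). Against 3 reads in clone 1, clone 2 was 466-fold higher, with an exact lower limit of 379. The control was 2.75-fold higher than clone 1 on that basis, with a lower limit of 1.88. SAA2 (ENSG00000134339, chromosome 11, 18239223 to 18248643) gave 2 reads in the control library, a count of 1 for clone 1 and 416 reads for clone 2, or 0.0189, 0.0126 and 3.91 FPKM. The ratio of SAA2 in clone 2 to the control was 207, with an interval of 56.9 to 1714 that shows how little the 2 control reads fix. No difference of SAA2 between clone 1 and the control was detectable at this depth. Both genes were near 0 in DLD1 control cells and clone 1 and well above it in clone 2.

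The paralogs are close enough to exchange reads. Their coding sequences, of 366 bases without the stop codon, differ at 11 positions (97% identity, from the GENCODE transcripts ENST00000356524 and ENST00000256733 on GRCh38). Below are bases 204 to 323 of each coding sequence, which hold 10 of the 11 differences, in capitals.
SAA1: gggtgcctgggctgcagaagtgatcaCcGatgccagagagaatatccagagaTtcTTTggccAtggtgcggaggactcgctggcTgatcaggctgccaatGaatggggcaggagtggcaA
SAA2: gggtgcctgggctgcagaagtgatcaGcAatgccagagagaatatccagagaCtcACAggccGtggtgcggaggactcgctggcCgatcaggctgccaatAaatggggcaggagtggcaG
Of the windows of 100 bases in this SAA1 transcript, 16.9% occur unchanged in a SAA2 transcript, and 34.1% of windows of 50 bases do. How reads that match both genes were counted is not given in the sources used here, so the split between SAA1 and SAA2 is uncertain. SAA2 also shares 267 of its 2227 exon bases (11.99%) with the SAA2-SAA4 readthrough gene, which was listed at 0 in all libraries. SAA4, the constitutive paralog, gave 0 reads in the control library, 0 for clone 1 and 16 for clone 2.

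C3, the central component of complement, was present at a low level and differed widely. C3 (ENSG00000125730, chromosome 19, 6677704 to 6730562) measured 0.0582 FPKM in the control, 0 FPKM for clone 1 and 1.46 FPKM for clone 2, or 23, 0 and 581 reads. It was 25.1-fold higher in clone 2 than in the control (16.6 to 39.9). Against 3 reads in clone 1, clone 2 was 144-fold higher, with an exact lower limit of 117. The control was 5.75-fold higher than clone 1 on that basis, with a lower limit of 4.31. On the log2(FPKM + 1) scale the same gene appeared almost level between clone 1 and the control (-0.08), because both values lie far under the pseudocount.

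CFB, factor B, and PIGR, the polymeric immunoglobulin receptor, were barely expressed. CFB (ENSG00000243649, chromosome 6, 31945650 to 31952084) gave 4 reads in the control library, 8 reads for clone 1 and a count of 1 for clone 2, or 0.0169, 0.0450 and 0.00419 FPKM. Its ratio of clone 2 to the control was 0.249 (0.00505 to 2.51). Its exons share 2249 of 4997 bases (45.0%) with AL645922.1, a readthrough gene of C2 and CFB that was listed at 0 in all libraries. How reads in shared bases were counted is not given in the sources used here, so the level of CFB is uncertain. PIGR (ENSG00000162896, chromosome 1, 206928518 to 206946466) shares no exon bases with another gene in the annotation. It gave 5 reads in the control library, 9 reads for clone 1 and 0 for clone 2, or 0.0241, 0.0578 and 0 FPKM. Clone 1 was 2.40-fold above the control in PIGR (0.722 to 9.12), an interval that includes 1. Against 3 reads in clone 2, PIGR was 4.02-fold lower there than in clone 1, with an exact lower limit of 2.65, the opposite order to LCN2.

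IL32 was the least abundant of the remaining genes. IL32 (ENSG00000008517, chromosome 16, 3065297 to 3082192) measured 1.31 FPKM in the control, 0.131 FPKM for clone 1 and 8.93 FPKM for clone 2, or 199, 15 and 1368 reads. It was 9.95-fold lower in clone 1 than in the control (5.89 to 18.1) and 6.84-fold higher in clone 2 (5.89 to 7.97), and the counting intervals of these folds overlap. Clone 2 exceeded clone 1 in IL32 by 68.0-fold (41.1 to 122).

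OLR1 and SDC4, both cell-surface proteins, were the most abundant members and therefore the most precisely measured by counting. OLR1 (ENSG00000173391, chromosome 12, 10158301 to 10172138) measured 41.8 FPKM in the control, 7.47 FPKM for clone 1 and 214 FPKM for clone 2. OLR1 was 5.60-fold lower in clone 1 (5.202 to 6.03) and 5.13-fold higher in clone 2 (4.99 to 5.27). SDC4 (ENSG00000124145, chromosome 20, 45325288 to 45348424) measured 50.1 FPKM in the control, 14.99 FPKM for clone 1 and 255 FPKM for clone 2. SDC4 was 3.34-fold lower in clone 1 (3.15 to 3.54) and 5.10-fold higher in clone 2 (4.97 to 5.24). The clone 2 to control ratios of OLR1 and SDC4 lay within each other's counting intervals, whereas in clone 1 OLR1 was further below the control than SDC4. The number of reads was 6068, 813 and 31277 for OLR1 and 6209, 1394 and 31860 for SDC4.

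ICAM1 had the smallest ratios to the control among the members at 1 FPKM or more in DLD1 control cells, as folds of FPKM. ICAM1 (ENSG00000090339, chromosome 19, 10270835 to 10286615) measured 6.70 FPKM in the control, 2.47 FPKM for clone 1 and 13.3 FPKM for clone 2, or 1179, 326 and 2348 reads. It was 2.71-fold lower in clone 1 (2.40 to 3.08) and 1.98-fold higher in clone 2 (1.85 to 2.13). An antisense gene, AC011511.5, overlaps 21.99% of its exon bases. The sources used here do not say whether counting used strand, and AC011511.5 was at or under 0.00655 FPKM in every library.

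Ratios were then set beside those of all genes, on the log2(FPKM + 1) scale and for genes past the filter of a mean of 1 FPKM. This filter passed 6 members (LCN2, SAA1, IL32, OLR1, SDC4 and ICAM1). SAA2 was just short with a mean of 0.991 FPKM, and C3, CFB and PIGR were under it at 0.395, 0.0207 and 0.0265 FPKM. The filter lets through genes that are high in 1 library, so the counts describe these 6 members only. In clone 1, 5 of the 6 lay 2-fold or more below the control, against 0.959% of all genes, and SAA1 was the exception with a ratio of -0.38, which became -2.01 with a pseudocount of 0.1 FPKM (6 of 6 members) and -1.07 under TPM. In clone 2, 5 of the 6 were at least 2-fold higher, against 1.33% of all genes, and ICAM1 was the exception with a ratio of 0.89, which became 1.03 under TPM. TPM values are larger than FPKM here, so the same pseudocount weighs less in these TPM ratios. All 6 were at least 2-fold higher in clone 2 than in clone 1, against 2.51% of all genes. LCN2, IL32, OLR1 and SDC4, 4 of the 6, met both criteria, below the control in clone 1 and above it in clone 2, against 0.197% of all genes. The genes were listed with these same ratios known, so nothing is read from the shares. With ratios of FPKM, a floor of 3 reads and no filter, a choice made after the data were seen, 7 of 10 members were lower in clone 1 (6.21% of all genes with reads), 7 of 10 higher in clone 2 (8.7%) and 8 of 10 higher in clone 2 than in clone 1 (9.03%).

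**Figure D2:**
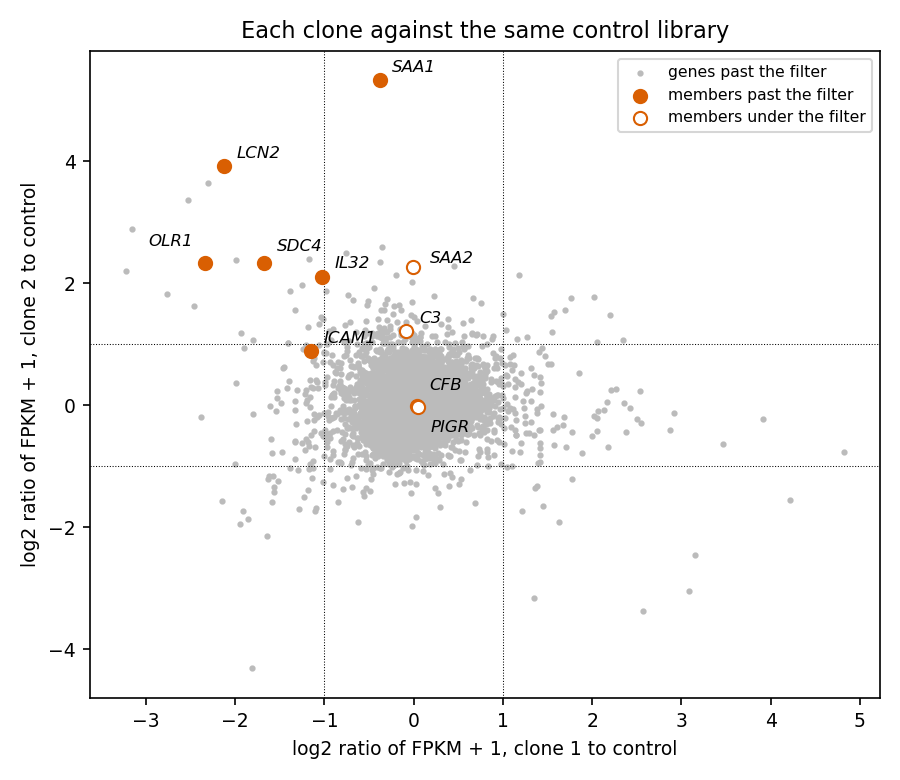
Log2 ratios of FPKM + 1 of clone 1 (horizontal axis) and clone 2 (vertical axis) to the same control library, for 11675 genes past the filter (grey), 6 members past it (filled) and 4 under it (open), with dotted lines at 2-fold. LCN2, OLR1, SDC4 and IL32 lie beyond 2-fold in both clones in the upper left, SAA1 is highest, and CFB and PIGR lie near 0 on both axes.

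The median log2 ratio of the 6 members was -1.41 in clone 1, 2.33 in clone 2 and 4.34 between the clones, against 0.04, -0.01 and -0.05 for all genes past the filter. Ranked by the ratio of clone 2 to clone 1 among those genes, LCN2 was at position 1, SAA1 at 5, OLR1 at 7, SDC4 at 11, IL32 at 16 and ICAM1 at 49. With all 10 members the medians were -0.70, 2.19 and 2.71. The members were listed with these ratios known, so medians and positions only describe them. SAA1 passed the filter through clone 2 alone, at 51.4 FPKM against 0.303 FPKM in the control and 0 FPKM in clone 1.

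Taking the knockout as 1 group, the arithmetic means of the clones' FPKM were above the control for each of the 10 genes, with the clones on either side of it. On the log2(FPKM + 1) scale this did not hold for ICAM1, with ratios of -1.15 in clone 1 and 0.89 in clone 2, nor for OLR1, with -2.34 and 2.33, where the step below the control was the larger. The median log2 ratio of the 6 members past the filter, averaged over the clones, was 0.43, and it was 2.33 with clone 2 alone and -1.41 with clone 1 alone. LCN2 had a mean of 71.7 ± 99.7 FPKM (SD, n = 2) in BEX2-/- DLD1 cells against 8.45 FPKM in the control. SDC4 had a mean of 135 ± 170 FPKM (SD, n = 2) against 50.1 FPKM, and ICAM1 one of 7.87 ± 7.64 FPKM (SD, n = 2) against 6.70 FPKM. For all 10 members, those under the filter included, the control value lay between those of the clones. It did so for 39.9% of the 11675 genes past the filter. The members were chosen with the differences between the clones known. The orders of CFB and PIGR, and of SAA2 in the control and clone 1, rest on few reads.

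Other genes of the same functions were counted from whole lists drawn up by function, with earlier results of these data known. In either direction, 2.02% of all genes past the filter were 2-fold apart from the control in clone 1, 2.06% in clone 2 and 4.19% between the clones. Among 20 acute-phase proteins, only SAA1 passed the filter, and 18 were under 1 FPKM in every library. SERPINA1, alpha-1-antitrypsin, which was chosen after its values were seen, measured 0.898 FPKM in the control, 0.264 FPKM for clone 1 and 0.928 FPKM for clone 2. The 21 complement components had 2 genes past the filter, CFD and C8G, and neither was 2-fold apart in any comparison. CFD, the protease that cleaves factor B, measured 5.50, 5.49 and 5.62 FPKM (control, clone 1, clone 2). Of 12 complement regulators, 5 passed the filter and none was 2-fold apart, including CD59 (25.4, 27.2 and 33.0 FPKM) and CD46 (27.6, 26.1 and 32.0 FPKM), which protect cells from their own complement. Both complement receptors past the filter, CR2 and C5AR1, were also within 2-fold.

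Antimicrobial proteins other than LCN2 went in both directions. Of 29 genes of this list 6 passed the filter, and 3 besides LCN2 were 2-fold apart in a comparison. REG4, a secreted lectin of the gut, measured 7.48 FPKM in the control, 74.3 FPKM for clone 1 and 0.546 FPKM for clone 2, the reverse of LCN2. PLA2G2A, a bactericidal phospholipase, was at 1.89, 8.87 and 0.249 FPKM in the same order of libraries, also the reverse. CHI3L1, a chitinase-like protein, was at 2.57, 2.65 and 8.31 FPKM, higher in clone 2 and level in clone 1. SLPI, a protease inhibitor of mucosal fluids, did not reach 2-fold, at 23.1, 18.1 and 15.8 FPKM. The neutrophil proteins S100A8 and S100A9, under the filter and named after their values were seen, had 0 reads in DLD1 control cells and clone 1, and 17 and 24 reads in clone 2.

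The relatives of the cell-surface members were counted next, again called on the log2(FPKM + 1) scale. Of 6 syndecans, glypicans and partners past the filter, SDC4 alone was 2-fold apart. SDC1 measured 35.4 FPKM in the control, 37.3 FPKM for clone 1 and 27.6 FPKM for clone 2. The syndecan-binding protein SDCBP was at 40.05, 37.3 and 73.6 FPKM, just under 2-fold between the clones. Among 6 scavenger receptors past the filter OLR1 alone was 2-fold apart on this scale, and CXCL16, also a scavenger receptor, was at 19.6, 18.7 and 29.6 FPKM. SCARA3, named after its values were seen, was at 6.74, 3.14 and 4.76 FPKM, over 2-fold lower in clone 1 in plain FPKM. In the list of ICAMs and leukocyte adhesion genes, ICAM2 was the only other of 7 genes past the filter to reach 2-fold. On the log2(FPKM + 1) scale it did so only between the clones. Its ratios to the control on that scale were -0.56 in clone 1 and 0.92 in clone 2. In plain FPKM, at 1.04, 0.381 and 2.87, ICAM2 was more than 2-fold from the control in both clones, in the order of ICAM1. CD44 and F11R were not 2-fold apart in any comparison. Among 8 iron genes past the filter LCN2 alone was 2-fold apart on this scale, and the ferritin chain FTL was at 718, 802 and 796 FPKM. CYBRD1, also named after its values were seen, was at 0.969, 1.11 and 2.12 FPKM, over 2-fold above the control in clone 2 in plain FPKM. Neither of the immunoglobulin transport genes past the filter, TRIM21 and TNFSF13, was 2-fold apart.

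**Figure D3:**
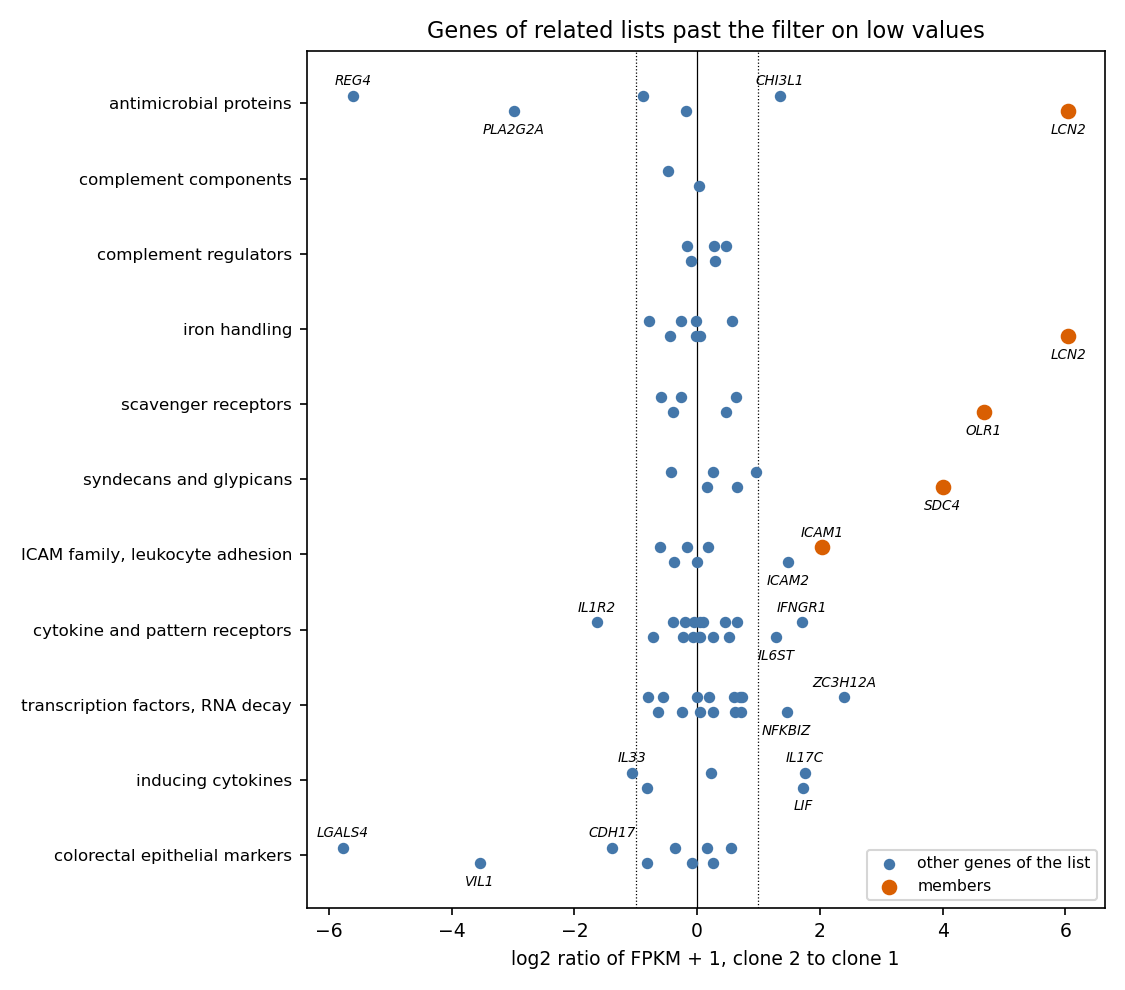
Log2 ratios of FPKM + 1 of clone 2 to clone 1 for genes past the filter in 11 lists, 1 point per gene, with members in orange and dotted lines at 2-fold. LCN2, OLR1, SDC4 and ICAM1 stand to the right of most genes of their lists, and REG4, PLA2G2A, LGALS4 and VIL1 stand to the left.

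Receptors and transcription factors that can act upstream of these genes were counted as well. Of 25 cytokine and pattern receptors 17 passed the filter, and 3 were 2-fold apart in a comparison on the log2(FPKM + 1) scale. Against the control, 1 was higher in clone 1 (1.06% of all genes) and 1 higher in clone 2 (1.33%). Between the clones, 2 were higher in clone 2 (2.51%) and 1 lower (1.68%). IFNGR1, a chain of the interferon gamma receptor, measured 28.8 FPKM in the control, 28.3 FPKM for clone 1 and 94.8 FPKM for clone 2. IL6ST, the shared signal chain of interleukin-6 type cytokines, was at 4.95, 3.49 and 9.997 FPKM, with a log2 ratio of 1.29 between the clones. IL1R2, a decoy receptor that binds interleukin-1 without signalling, ran the other way at 4.09, 10.3 and 2.65 FPKM. LTBR, the lymphotoxin receptor, and MYD88, an adaptor of toll-like receptors, were not 2-fold apart.

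Of 17 transcription factors and RNA decay proteins of the acute phase, 15 passed the filter. On the log2(FPKM + 1) scale 2 were 2-fold apart, both higher in clone 2 than in the control (1.33% of all genes). CEBPA and EHF, named after their values were seen, reached 2-fold only in plain FPKM, as higher in clone 1 than in the control. They were at 1.02, 2.47 and 0.996 FPKM and at 8.10, 16.3 and 13.6 FPKM (control, clone 1, clone 2). NFKBIZ, a nuclear co-activator that LCN2 transcription is known to need, was at 4.68, 4.34 and 13.7 FPKM. ZC3H12A, a ribonuclease that degrades inflammatory mRNAs, was at 10.5, 6.17 and 36.8 FPKM, in the order of LCN2. The median of these 15 genes was -0.02 in clone 1 and 0.37 in clone 2. The list of 16 cytokines that induce acute-phase genes also holds IL1RN, the interleukin-1 receptor antagonist. Of these 16 genes 5 passed the filter, and 3 were 2-fold apart in a comparison. IL17C, an epithelial cytokine, was at 2.09, 0.448 and 3.89 FPKM, and LIF, of the interleukin-6 family, at 13.6, 11.4 and 39.97 FPKM. IL33, an alarmin, was highest in clone 1, at 2.71, 9.02 and 3.79 FPKM.

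Some markers of the colorectal epithelium differed between the clones in the opposite direction to the members. Of 10 markers 9 passed the filter, of which 3 were at least 2-fold higher in clone 1 than in the control (against 1.06% of all genes) and 2 at least 2-fold lower in clone 2 (against 0.737%). Between the clones 3 were lower in clone 2, against 1.68% of all genes. LGALS4, a galectin of differentiated enterocytes, measured 2.28 FPKM in the control, 60.2 FPKM for clone 1 and 0.119 FPKM for clone 2. VIL1, the brush border protein villin, was at 3.61, 13.2 and 0.221 FPKM, and CDH17, the intestinal cadherin, at 34.9, 78.7 and 29.5 FPKM. Summed over the 10 markers the level was 1638, 1796 and 1885 FPKM, most of it from keratins that were not 2-fold apart. The part of these marker differences in the levels of LCN2 and the other members was not tested.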

How the data were processed

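RNA-Seq of 1 DLD1 control library and 2 libraries of BEX2-/- DLD1 clones was taken as the authors deposited it, as 1 table of FPKM values for 60504 Ensembl genes, with no value column left over (0). The submitters' processing notes name Trim Galore 0.3.7, STAR 2.5, Cufflinks 2.2.1, DESeq 1.22.1 and hg19, without roles. DESeq needs counts and was not run.

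The 10 genes and 18 lists were chosen with earlier results of these data known. Ratios were taken as log2 of FPKM + 1 for genes averaging 1 FPKM or more between the control value and the clones' mean, and called at 2-fold. With 1 control library no p-value was given. Whole reads were recovered from the FPKM steps with GENCODE 29 exon lengths. Of values under 100 reads in genes of 1 transcript, 98.7% to 98.8% came within 0.02 of a whole read, and in other genes 87.8% to 88.3%. Coordinates are GENCODE 29 on GRCh38, since the table holds none. Named genes were the members, up to 4 genes per list called at 2-fold, and up to 2 of the highest not called. Also named were the 5 protein-coding genes past the filter nearest in pattern to LCN2 and to the median of the members. Also tried were scaling to TPM or by the median ratio, 0.1 FPKM as pseudocount, no filter or one of 5 FPKM, a 1.5-fold threshold, leaving out either clone and, chosen after seeing the data, a floor of 3 reads. Python 3.11.15 with pandas 2.3.3 and scipy 1.17.1 was used, after the scripts had been tested on simulated data.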

Additional observations from a re-analysis of the deposited data

How the results depend on the processing

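No paired analysis was possible because the control is 1 library with no replicate number. The median log2 ratios of the members past the filter were -1.41 in clone 1, 2.33 in clone 2, 4.34 between the clones and 0.43 for the mean of the clones. With a pseudocount of 0.1 FPKM they were -2.24, 2.52, 5.06 and 0.17. Scaled by the median ratio, with 7 members past the filter, the values that moved were -1.19 in clone 1, 4.07 between the clones and 0.54 for the mean, and scaled to TPM, with 8 members, they were -1.48 in clone 1, 2.53 in clone 2 and 0.57 for the mean. With no filter they were -0.70, 2.19 and 2.71, and with a filter of 5 FPKM, which left 5 members, -1.68 in clone 1, 4.67 between the clones and 0.33 for the mean. With a floor of 3 reads and no filter, chosen after seeing the data, they were -1.63, 2.57 and 5.46. Leaving out a clone took the mean of the clones from -1.41 (without clone 2, the sign reversed) to 2.33 (without clone 1). The number of members at least 2-fold higher in clone 2 went from 5 of 6 (1.33% of all genes) to 8 of 8 under TPM (3.945%). There C3 and SAA2 also passed the filter and ICAM1 crossed 2-fold (1.03, from 0.89). Each library's FPKM summed to between 260686 and 273924, so TPM raised every value while pseudocount and filter stayed at 1. That made the pseudocount weaker and the filter looser, and 15841 genes passed instead of 11675. With a pseudocount of 0.1 FPKM, 6 of 6 members were lower in clone 1, SAA1 included, and the share of all genes called was 1.98% lower in clone 1, 2.501% higher in clone 2 and 4.10% higher in clone 2 than in clone 1. Of 90 ratios of single members under the other pseudocount and both scalings, 0 of those called at 2-fold changed sign. That result was fixed in advance, because a pseudocount cannot reverse a ratio and the scalings moved the libraries only slightly against each other. Among the 90 ratios, 27 moved by more than the mean arm of their own log2 counting interval. The other 63 include large moves of genes with few or no reads, whose intervals are wide or unbounded, and with a pseudocount of 0.1 FPKM the ratio of clone 2 to clone 1 went from 5.71 to 9.01 for SAA1, from 2.28 to 5.16 for SAA2 and from 1.30 to 3.96 for C3. The reads of CFB, PIGR and SAA2 in the control and clone 1 limit what can be said of them.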

Other observations

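Only protein-coding genes past the filter were compared for nearness. Those whose pair of log2 ratios to the control lay nearest to that of LCN2, over 2 ratios that share the control library, included several chemokines. CXCL8, which attracts neutrophils, measured 5.62 FPKM in the control, 0.148 FPKM for clone 1 and 67.5 FPKM for clone 2, at a Euclidean distance of 0.68. CCL20, which attracts CCR6-bearing lymphocytes and dendritic cells, was at 8.27, 0.0418 and 68.0 FPKM, at a distance of 1.45. CXCL5, a further neutrophil chemokine, was at 165 FPKM, 40.7 FPKM and 869 FPKM, at a distance of 1.54. The nearest of the genes compared was KRTAP3-1, a keratin-associated protein of hair, at 4.33, 0.0775 and 65.5 FPKM and a distance of 0.33, and the fifth was OLR1 at 1.60.

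Among the same protein-coding genes, KRTAP2-3, at a distance of 0.25, and SDC4, at 0.26, were nearest to the median of the members past the filter. PRR9 followed at 0.39, IL32 at 0.44 and TNFAIP3 at 0.45. TNFAIP3, an inhibitor of NF-kappaB signalling that the pathway itself induces, measured 3.35 FPKM in the control, 0.656 FPKM for clone 1 and 15.001 FPKM for clone 2. KRTAP2-3, also a hair keratin-associated protein, was at 1.83, 0.257 and 13.9 FPKM. SDC4 and IL32 helped to set that median, so their nearness is partly built in.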
